A study of Mus musculus with 12 samples.

Results

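S100 and annexin genes encode calcium-regulated proteins, and 9 of them were followed here through 6 h of culture of naïve CD8+ T cells: S100a4, S100a6, S100a10, S100a11, S100a13, Anxa2, Anxa5, Anxa6 and Anxa7. Rows of the count table were taken for these genes by symbol. Of these, 8 were among the 14323 gene symbols of the count table, and S100a4 was not analysed here. In wells with anti-CD3, an antibody that triggers the T cell receptor complex, the RNA of all 7 genes that could be tested was lower than in unstimulated wells with isotype control, where 36.1% of all genes were lower. When anti-LAIR-1 was present together with anti-CD3, S100a10, S100a11, S100a13 and Anxa7 were higher than with isotype control, as were 3.90% of all genes. The call of S100a13 rested on few reads and was lost in most alternatives to the fit, that with the mouse as a replicate block (adjusted p = 0.0695) among them. Without anti-CD3 none of the 7 passed the test.

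The cells came from spleens of 3 wild type mice, adult animals of C57BL/6N background by the study's methods, and were naïve by the gate that sorted them: positive for TCRβ, CD8 and CD62L and negative for CD44. Of these, 100000 cells were put in each well and cultured for 6 h. Cells of each mouse were placed in 4 conditions, which gave 12 libraries: no anti-CD3 with isotype control, no anti-CD3 with 2.5 µg/ml anti-LAIR-1, 2.5 µg/ml anti-CD3 with isotype control, and 2.5 µg/ml anti-CD3 with 2.5 µg/ml anti-LAIR-1, all antibodies being immobilized on the plate. LAIR-1 is an inhibitory collagen receptor of leukocytes, and the anti-LAIR-1 antibody was clone 2C7. The comparisons ask how the receptor's ligation changes RNA levels in resting and in stimulated cells.

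S100 proteins are small proteins that carry EF-hand calcium-binding loops and mostly act as dimers, which on binding calcium expose a surface for a target protein. S100A10 is an exception, since its loops no longer bind calcium, and it stays in a complex with annexin A2. Annexins bind the inner face of membranes in the presence of calcium through a repeated core domain, and their N-terminal tails recruit partners such as S100 proteins. In T cells several of these genes are known for their high RNA levels in effector and memory cells.

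S100a6, S100a10, S100a11 and S100a13 lie on chromosome 3 (GRCm38, the genome build also called mm10). By the GENCODE M21 annotation S100a13 spans chr3:90514435-90524581, S100a6 chr3:90612882-90624181, S100a11 chr3:93520488-93526287 and S100a10 chr3:93555080-93564643, all on the plus strand. Anxa5 lies on the same chromosome at chr3:36448923-36475894 on the minus strand. The other annexin genes are dispersed, with Anxa2 at chr9:69453620-69491795 on the plus strand, Anxa6 at chr11:54979108-55033445 on the minus strand and Anxa7 at chr14:20455260-20480133 on the minus strand. A processed pseudogene, S100a11-ps, lies at chr12:73961142-73961447, so that reads of S100a11 could in part have been discarded as ambiguous or split, and its values are uncertain to that extent. Exons of Anxa2 overlap an antisense gene, Gm16144, which was not in the count table.

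Promoter sequences of RefSeq (GRCm38.p6, 250 bases before the start site) matched 7 of the 9 genes; S100a10 and Anxa6 had none. The promoters of S100a11 and Anxa7 (the more upstream of 2), genes that were higher when anti-LAIR-1 was added to anti-CD3, and of Anxa2, which encodes the partner of S100A10, are shown 5′ to 3′ on the strand of the gene, as far as the bases lie outside any annotated gene. Capitals mark matches on either strand to the letters searched for. These were TGANTCA, the letters of an AP-1 site, and GGGCGG, the GC box that SP factors bind. The box bound by KLF and SP factors was searched as CCACCC. The TATA box was searched as TATAAA, and a FOXO site was searched with the letters TGTTTAC.
S100a11, chr3:93520246-93520487, plus strand: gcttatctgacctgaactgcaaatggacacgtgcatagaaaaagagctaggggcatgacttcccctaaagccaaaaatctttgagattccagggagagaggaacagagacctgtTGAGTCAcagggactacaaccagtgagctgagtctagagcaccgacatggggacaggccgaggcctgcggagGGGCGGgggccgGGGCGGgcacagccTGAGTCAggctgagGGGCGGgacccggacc
Anxa2, chr9:69453433-69453619, plus strand: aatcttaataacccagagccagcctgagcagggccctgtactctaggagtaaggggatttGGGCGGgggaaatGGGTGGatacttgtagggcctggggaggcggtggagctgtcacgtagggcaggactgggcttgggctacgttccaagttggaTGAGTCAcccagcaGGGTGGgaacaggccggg
Anxa7, chr14:20480134-20480383, minus strand: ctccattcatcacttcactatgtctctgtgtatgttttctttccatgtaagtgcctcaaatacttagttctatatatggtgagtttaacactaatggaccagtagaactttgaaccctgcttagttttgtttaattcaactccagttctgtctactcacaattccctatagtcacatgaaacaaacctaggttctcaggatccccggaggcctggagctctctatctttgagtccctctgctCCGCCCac
The S100a11 stretch of 242 bases held TGANTCA 2 times and GGGCGG 3 times. The Anxa2 stretch of 187 bases held TGANTCA 1 time, CCACCC 2 times and GGGCGG 1 time. Its full window, partly inside the annotated gene, held TGANTCA 1 time, CCACCC 3 times, GGGCGG 3 times and TATAAA 1 time. The 250 bases shown of Anxa7 held GGGCGG 1 time only among the letters searched. The full window of the other Anxa7 promoter, which lies partly inside the annotated gene, held GGGCGG 4 times and CCACCC 1 time. Among 27025 RefSeq promoters, windows of 250 bases held TGANTCA in 6.87%, GGGCGG in 32.9%, CCACCC in 27.7%, the TATA box in 13% and the FOXO site in 3.09%. GC content of the full 250-base windows was 60.0% for S100a11 and 62.4% for Anxa2, against a median of 52.0% over all promoters. For Anxa7 it was 42.4% in the more upstream promoter and 62.0% in the other. S100a13, also called higher with anti-LAIR-1 and anti-CD3, is not shown, as only 42 bases of its window lay outside annotated genes. Its full window held TGANTCA 0 times, GGGCGG 0 times and CCACCC 1 time. TGANTCA was likewise found 0 times in the full windows of S100a4, S100a6 and Anxa5. These matches describe the letters only.

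The libraries held 1781218 to 7725545 counts. Group medians were lower in unstimulated cells (2304214 with isotype and 3548881 with anti-LAIR-1) than with anti-CD3 (4883760 with isotype and 6204054 with anti-LAIR-1). Values are given as CPM (counts scaled to library size, normalized by TMM), on which scale 3 counts corresponded to 0.404 to 1.61 CPM per library. S100a6, which encodes calcyclin, had 0 to 5 counts per library and 15 in all, and was too low to be tested. The summed CPM of 10 naïve CD8 T cell markers was 6075 to 6781 in unstimulated isotype libraries and 1780 to 1910 in anti-CD3 isotype libraries, with 2262 to 2603 when anti-LAIR-1 was added. Of 9 myeloid markers 6 were in the table (28.4 to 63.4 CPM summed per library), and most of that sum was Cst3, with group means of 34.2 to 54.7 CPM; those of Csf1r, Itgam, Cd14, Fcer1g and Tyrobp were at most 2.18 CPM; B cell markers (4 of 5 in the table) summed to at most 9.69 CPM, dendritic cell markers (3 of 3) to 4.63, CD4 and regulatory T cell markers (2 of 2) to 4.84, platelet markers (2 of 2) to 3.44, the NK cell marker in the table (1 of 2) to 0.661, and none of 4 red cell genes was in the table. No marker in the table was at 0 in all 12 libraries. Memory CD8 T cell markers (6 of 6) summed to 115 to 131 CPM in unstimulated libraries, 184 to 198 CPM with anti-CD3 and isotype, and 159 to 188 CPM with both antibodies. Mitochondrial reads took 17.6% to 20.9% of counts in unstimulated libraries and 11.5% to 13.2% with anti-CD3, and their part in the results was not tested.

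With isotype control, anti-CD3 lowered the RNA of 7 of the 7 tested genes, with a median log2 fold change of -2.49, against -0.03 over all 8690 genes tested. Across all genes, 36.1% were lower in the same comparison. The libraries of stimulated and unstimulated cells did not overlap for any of the 7, as for 35.8% of all genes with every stimulated library below. Values are shares of each library's reads, so a fall here is a fall in share. Fewer cells of a type, less RNA of a gene per cell and more RNA of other genes cannot be told apart.

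S100a10 encodes p11, the annexin A2 partner. Its level in mice 1, 2 and 3 was 1217, 818 and 808 CPM in unstimulated isotype libraries and 107, 99.2 and 134 CPM with anti-CD3 and isotype. Every stimulated library lay far below the unstimulated ones, and the fall was 8.53-fold (log2 fold change -3.09, SE 0.14, adjusted p = 3.34e-15). Mouse 1 stood highest among the unstimulated libraries, and without that library the log2 fold change was -2.87. S100a11 (calgizzarin), which binds annexin A1, was at 414, 369 and 367 CPM unstimulated and at 150, 93.3 and 118 CPM with anti-CD3, a fall of 3.28-fold (log2 fold change -1.71, SE 0.13, adjusted p = 1.92e-11). S100a13, which takes part in the release of FGF1 without a signal peptide, was at 24.8, 34.2 and 25.8 CPM unstimulated and fell 9.80-fold to 3.02, 2.12 and 3.53 CPM, from only 10, 10 and 22 reads (log2 fold change -3.29, SE 0.27, adjusted p = 1.98e-10).

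Among the annexins, Anxa2 was at 22.8, 32.2 and 30.7 CPM unstimulated and at 1.81, 2.54 and 4.01 CPM with anti-CD3, from 6, 12 and 25 reads, so that it fell 9.70-fold (log2 fold change -3.28, SE 0.28, adjusted p = 4.07e-10). Anxa5, the phosphatidylserine-binding annexin used to stain dying cells, fell 5.61-fold from 27.6 ± 4.30 to 4.75 ± 2.20 CPM (SD, n = 3). Anxa6, which organizes membrane and cytoskeleton, was at 126, 110 and 100.1 CPM and then at 21.7, 20.5 and 24.1 CPM, 5.19-fold lower. The smallest fold of these annexins was that of Anxa7 (synexin), a membrane-fusion annexin, which went from 148, 135 and 178 CPM to 79.7, 64.7 and 87.5 CPM, a fall of 2.03-fold (log2 fold change -1.02, SE 0.13, adjusted p = 1.78e-07). As a share of the counts on S100a6, S100a10, S100a11 and S100a13, S100a10 took 67.0% to 73.5% in unstimulated libraries and 41.1% to 52.4% with anti-CD3 and isotype, while Anxa7 went from 44.2% to 53.1% of the counts on Anxa2, Anxa5, Anxa6 and Anxa7 to 70.5% to 75%.

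**Figure D1:**
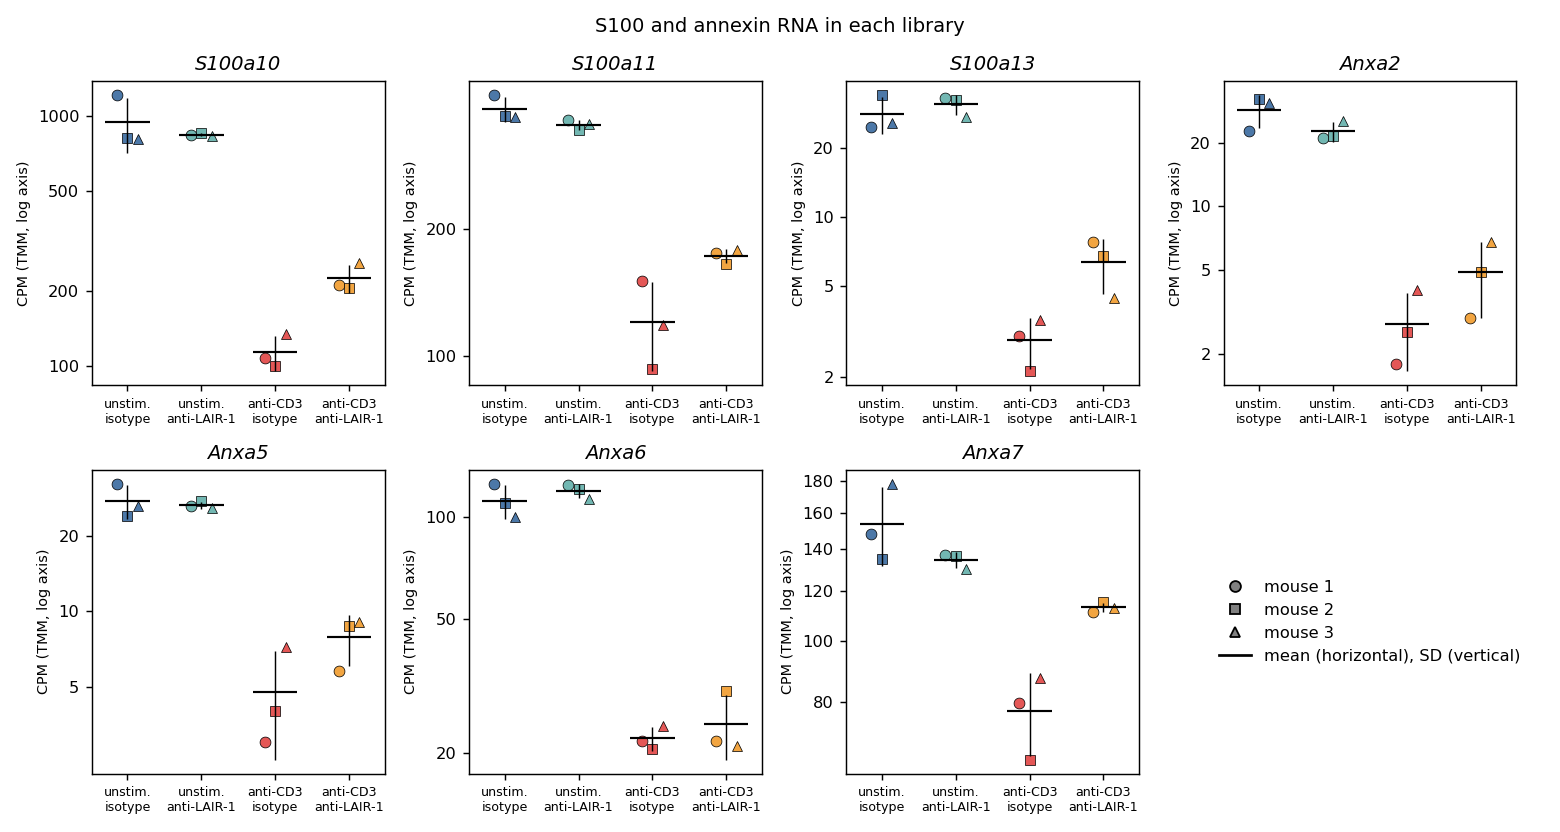
CPM (TMM, log axis) of each tested gene in each of the 12 libraries, 3 mice in each of 4 conditions; symbols show the mouse, horizontal lines the mean and vertical lines the SD. For S100a10 the unstimulated libraries lie between 808 and 1217 CPM, and the anti-CD3 libraries between 99.2 and 258 CPM, those with anti-LAIR-1 above those with isotype.

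The fall with anti-CD3 was also found in the presence of anti-LAIR-1, in 7 of 7 tested genes, against 36.3% of the 9000 genes tested. The median log2 fold change was -1.92, and -0.03 over all genes. All 7 sets of libraries were again without overlap, as for 37.2% of genes. S100a10 was 3.78-fold lower (log2 fold change -1.92, SE 0.08, adjusted p = 2.01e-13), S100a11 was 2.04-fold, S100a13 4.79-fold, Anxa2 4.83-fold, Anxa5 3.44-fold and Anxa6 4.92-fold lower. Anxa7 was 1.19-fold lower (log2 fold change -0.25, SE 0.08, adjusted p = 0.0112), and this call was lost without a filter on low counts (adjusted p = 0.163), in DESeq2 (0.0814; 0.187 with the mouse as a block) and without the anti-CD3 anti-LAIR-1 library of mouse 1 (0.0527). These libraries are not shared with the isotype comparison, but the mice are. Under the upper quartile in place of TMM the median of all genes moved to -0.24 (-0.20 with isotype), and no member turned direction.

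**Figure D2:**
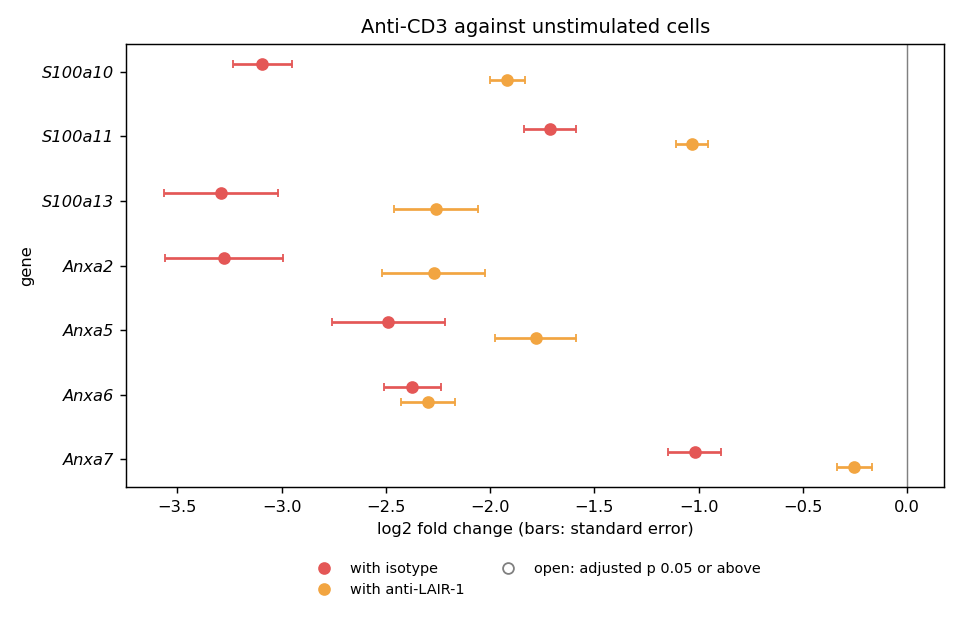
Log2 fold change of anti-CD3 against unstimulated cells for 7 genes, with isotype or with anti-LAIR-1 (x axis; bars are the SE of the edgeR fit, 3 libraries a group). Every point lies below 0 and has an adjusted p under 0.05; the values with isotype run from -3.29 (S100a13) to -1.02 (Anxa7).

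With anti-CD3, anti-LAIR-1 raised 4 of the 7 tested genes over isotype, S100a10, S100a11, S100a13 and Anxa7, against 3.90% of 8800 genes called higher. None was lower, beside 1.86% of all genes. The median log2 fold change was 0.62, and 0.00 over all genes. For the same 4 genes every anti-LAIR-1 library lay above every isotype library, as for 12.9% of all genes tested. S100a10 reached 211, 204 and 258 CPM with anti-LAIR-1 in mice 1, 2 and 3, against 107, 99.2 and 134 CPM with isotype, which was 1.95-fold higher (log2 fold change 0.96, SE 0.11, adjusted p = 3.46e-05). Within the mice the differences of S100a10 were 0.98, 1.04 and 0.94 on the log2 scale. Its levels with both antibodies stayed well below those of unstimulated cells.

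Anxa7 was at 111, 115 and 113 CPM with anti-LAIR-1, against 79.7, 64.7 and 87.5 CPM with isotype, so that it was 1.45-fold higher (log2 fold change 0.54, SE 0.10, adjusted p = 0.00335). All alternatives to the fit kept the calls of S100a10 and Anxa7. S100a11 was at 175, 165 and 178 CPM against 150, 93.3 and 118 CPM (log2 fold change 0.52, SE 0.12, adjusted p = 0.014), with mouse differences of 0.22, 0.82 and 0.58. Its call was lost without the anti-CD3 isotype library of mouse 2 (adjusted p = 0.0691) or of mouse 3 (adjusted p = 0.0528). S100a13 rested on few reads, 58, 40 and 21 with anti-LAIR-1 (7.81, 6.75 and 4.44 CPM) against 10, 10 and 22 with isotype (3.02, 2.12 and 3.53 CPM), and its log2 fold change of 1.13 (SE 0.32) passed narrowly (adjusted p = 0.0493). Adding the mouse as a replicate block ended the call of S100a13 (adjusted p = 0.0695), as did DESeq2 (adjusted p = 0.132) and RLE in place of TMM (adjusted p = 0.0507), and it passed in 6 of 14 alternatives. On leaving out each of the 6 libraries in turn it passed 1 time, without the anti-LAIR-1 library of mouse 3, and otherwise had an adjusted p of 0.0721 (without the isotype library of mouse 3) to 0.19 (without the anti-LAIR-1 library of mouse 1).

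The other annexins did not pass. Anxa2 was at 2.96, 4.89 and 6.77 CPM with anti-LAIR-1 and at 1.81, 2.54 and 4.01 CPM with isotype, the groups overlapping although the value with anti-LAIR-1 was higher in 3 of 3 mice, by 0.59, 0.83 and 0.69 on the log2 scale (log2 fold change 0.67, SE 0.38, adjusted p = 0.355). Anxa5 had a log2 fold change of 0.62 (SE 0.31, adjusted p = 0.285) and was higher with anti-LAIR-1 in 3 of 3 mice, by 0.84, 1.04 and 0.31. Anxa6 was at 21.7, 30.5 and 20.9 CPM with anti-LAIR-1 and at 21.7, 20.5 and 24.1 CPM with isotype (log2 fold change 0.13, SE 0.17, adjusted p = 0.752), without a shared direction among the mice. Of the 10 naïve CD8 T cell markers, 7 were called higher with anti-LAIR-1 in this comparison, beside 3.90% of all genes. Cd8a, Cd8b1 and Ccr7 did not pass, and Ccr7 went the other way (log2 fold change -0.21). The part of these markers in the results was not tested.

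**Figure D3:**
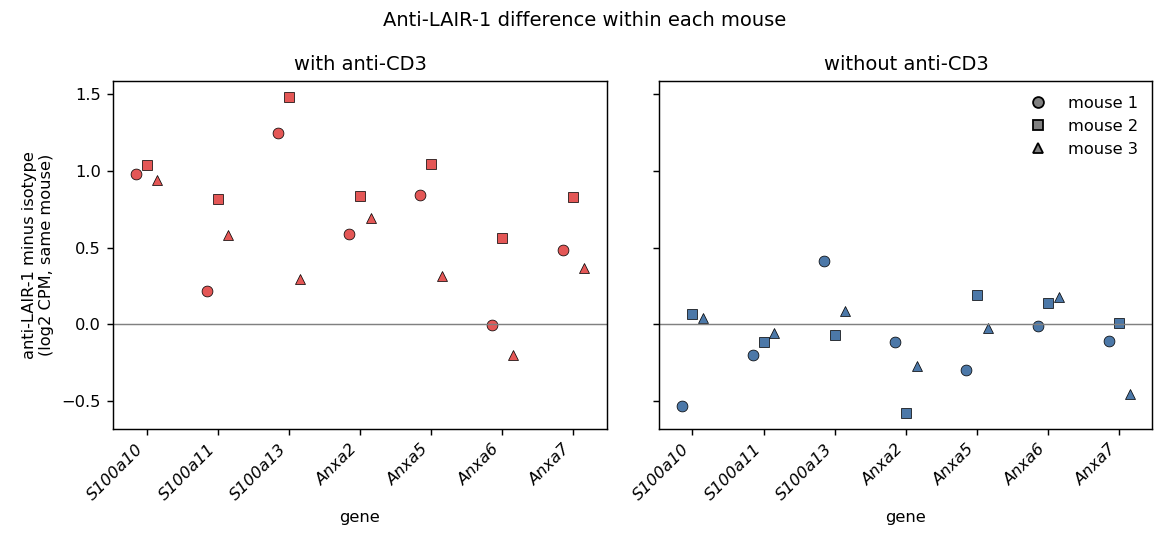
Log2 CPM with anti-LAIR-1 minus isotype in the same mouse, for 7 genes, in wells with anti-CD3 and wells without (y axis; 1 symbol for each mouse). With anti-CD3 the 3 mice lie between 0.94 and 1.04 for S100a10, while without anti-CD3 they lie between -0.53 and 0.07.

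Without anti-CD3, anti-LAIR-1 changed 0 of the 7 tested genes, against 0% of the 8770 genes tested by edgeR (384 of which had an unadjusted p under 0.05, and 0 were called by DESeq2). All 7 adjusted p-values were 0.997. S100a10 was at 841, 856 and 831 CPM with anti-LAIR-1 and at 1217, 818 and 808 CPM with isotype (log2 fold change -0.17, SE 0.11). Without the isotype library of mouse 1 that value turned to 0.052 for S100a10, and to 0.082 for Anxa5. Anxa7 was at 137, 136 and 130 CPM and at 148, 135 and 178 CPM (-0.19, SE 0.11). S100a11, at 360, 341 and 353 CPM, lay below all isotype libraries (414, 369 and 367 CPM; log2 fold change -0.13, SE 0.09), as did 4.86% of all genes, and the groups of the other 6 genes overlapped. The log2 fold changes of S100a13, Anxa2, Anxa5 and Anxa6 were 0.13, -0.32, -0.07 and 0.09.

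The difference between the anti-LAIR-1 effects with and without anti-CD3 was tested as an interaction over all 12 libraries. S100a10, S100a11 and Anxa7 passed, 3 of 7 tested genes, all with a higher effect in stimulated cells, against 1.82% of the 9223 genes tested; 0.249% were lower, none of them members. Of the naïve CD8 T cell markers, 6 of 10 passed as higher (median 0.54), while Ccr7 had a value of -0.18 and did not pass. Their part in the result was not tested. S100a10 had an interaction of 1.14 on the log2 scale (SE 0.18, adjusted p = 0.000406), S100a11 of 0.65 (SE 0.16, adjusted p = 0.0227) and Anxa7 of 0.73 (SE 0.16, adjusted p = 0.00933). The call of S100a11 was lost on leaving out any of 5 libraries (adjusted p up to 0.0858), namely the unstimulated isotype library of mouse 1, the unstimulated anti-LAIR-1 library of mouse 3, the anti-CD3 isotype libraries of mice 2 and 3, and the library of mouse 3 with both antibodies. S100a13 (1.00, SE 0.35, adjusted p = 0.169), Anxa2 (0.98, SE 0.40, adjusted p = 0.297), Anxa5 (0.68, adjusted p = 0.446) and Anxa6 (0.05, adjusted p = 0.959) did not pass. The median interaction of the 7 genes was 0.73, and 0.04 over all genes.

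**Figure D4:**
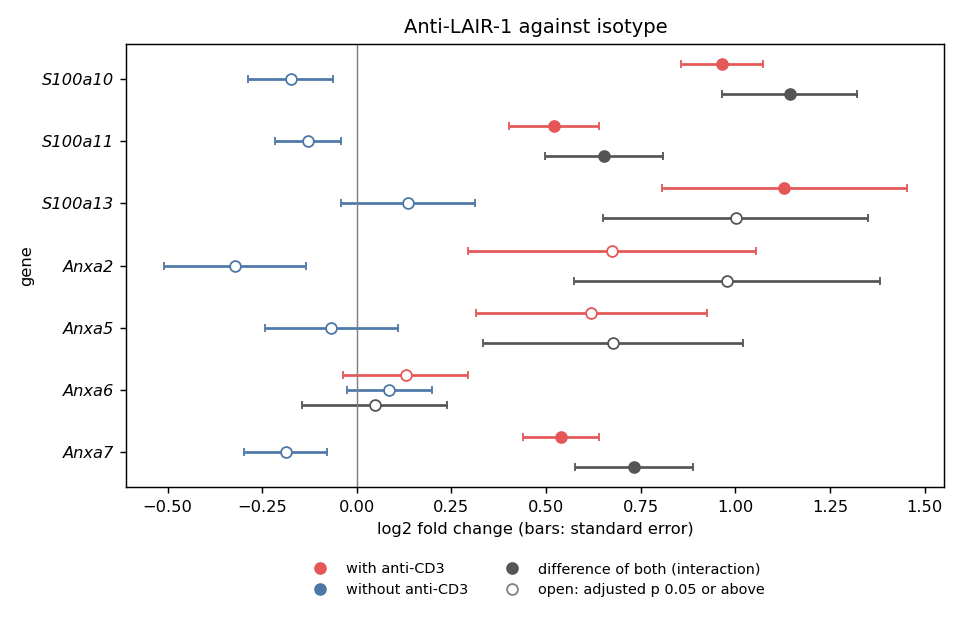
Log2 fold change of anti-LAIR-1 against isotype for 7 genes (x axis), with anti-CD3, without it, and the interaction of both, with the SE of the edgeR fit as bars (3 libraries a group) and open symbols where the adjusted p was 0.05 or above. Filled symbols with anti-CD3 are those of S100a10, S100a11, S100a13 and Anxa7, and those of the interaction are S100a10 (1.14), S100a11 (0.65) and Anxa7 (0.73).

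For all 7 genes the order of group means ran from unstimulated cells, through anti-CD3 with anti-LAIR-1, to anti-CD3 with isotype. The unstimulated groups were not told apart by the test for any gene, and the stimulated groups were told apart for S100a10, S100a11, S100a13 and Anxa7 only. Means of S100a10 were 948 ± 233, 843 ± 12.7, 224 ± 29.1 and 113 ± 18.5 CPM (SD, n = 3) in unstimulated cells with isotype and with anti-LAIR-1, and in stimulated cells with anti-LAIR-1 and with isotype. In the same order Anxa7 was at 154 ± 22.0, 135 ± 3.89, 113 ± 1.97 and 77.3 ± 11.6 CPM (SD, n = 3).

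Of 20 other S100 and annexin genes, 11 were in the table and mostly too low to be tested. Anxa11, tested in every comparison, fell with anti-CD3 (log2 fold change -1.07 with isotype, adjusted p = 0.000517, and -0.83 with anti-LAIR-1, adjusted p = 0.000426), and had a log2 fold change of 0.21 for anti-LAIR-1 with anti-CD3 (adjusted p = 0.604). Anxa4 fell by 2.16 on the log2 scale with anti-CD3 under anti-LAIR-1 (adjusted p = 0.00127). This rested on few reads, 12, 3 and 1 in mice 1, 2 and 3 with both antibodies against 9, 15 and 20 with anti-LAIR-1 alone. With isotype, Anxa4 was too low to be tested for anti-CD3. S100a1, whose gene lies head to head with S100a13, had 10 reads in all libraries together.

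Proteins that bind S100 proteins or annexins were taken as a list of 17 genes, of which 12 were tested. With anti-CD3, anti-LAIR-1 raised 3 of the 12 and lowered none, with a median log2 fold change of 0.08, beside 3.90% of all genes higher and 1.86% lower. These were Sri, encoding sorcin, an EF-hand partner of annexin A7 (log2 fold change 0.58, adjusted p = 0.00703), Ahnak, a giant scaffold protein bound by S100A10 and annexin A2 (1.16, adjusted p = 0.0236), and Myh9, the non-muscle myosin heavy chain (0.33, adjusted p = 0.0316). Ahnak lost its call in DESeq2 (adjusted p = 0.0526) and without the isotype library of mouse 2 (0.0864), that of mouse 3 (0.103) or the anti-LAIR-1 library of mouse 3 (0.117). Myh9 lost it without the isotype library of mouse 1 (adjusted p = 0.116) or 3 (0.127) or the anti-LAIR-1 library of mouse 2 (0.119) or 3 (0.117), and in DESeq2 with the mouse as a replicate block (0.0588). Sri also passed the interaction (0.79, adjusted p = 0.00933). Anti-CD3 with isotype lowered 6 of the 12 and raised 2, beside 36.1% of all genes lower and 35.2% higher. Ahnak fell by 4.12 and Sri by 2.24 on the log2 scale, whereas Cacybp, the calcyclin-binding protein, and Ppp5c, a protein phosphatase, rose by 2.10 and 2.10. With anti-LAIR-1 it lowered 5 and raised 3, near the shares over all genes (36.3% lower and 36.4% higher).

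Other calcium-sensing EF-hand genes gave 15 tested genes. With isotype, anti-CD3 raised 5, such as Lcp1, the actin-bundling L-plastin (log2 fold change 1.18), and lowered 6, such as Chp1, a calcineurin-like protein (-1.97), and Stim1, the calcium sensor of the endoplasmic reticulum (-2.25). These counts were near the shares of 35.2% higher and 36.1% lower over all genes. None of the 15 passed for anti-LAIR-1, with or without anti-CD3, and their median log2 fold changes were 0.02 and -0.02. Sri, an EF-hand gene counted above among the binding partners, was not in this list. It passed for anti-LAIR-1 with anti-CD3 (log2 fold change 0.58, adjusted p = 0.00703).

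The last list held 16 genes often high in antigen-experienced T cells. Anti-CD3 with isotype raised 4 and lowered 6 of the 14 tested, near the shares over all genes (35.2% higher and 36.1% lower). Among these, Emp3, a membrane protein, Crip1, a LIM protein, and Vim, the intermediate filament vimentin, had log2 fold changes of -3.55, -4.11 and -3.97, and Nkg7, a protein of cytotoxic granules, of 1.91. With anti-CD3, anti-LAIR-1 raised Crip1 (0.87, adjusted p = 0.00335) and Emp3 (0.63, adjusted p = 0.0302) and lowered Nkg7 (-0.69, adjusted p = 3.68e-05), which was 2 higher and 1 lower of 14 tested, beside 3.90% of all genes higher and 1.86% lower. The call of Emp3 was lost without the isotype library of mouse 1 (adjusted p = 0.0525) or 2 (0.157) or the anti-LAIR-1 library of mouse 2 (0.068) or 3 (0.135). Crip1 (0.94, adjusted p = 0.0167) and Nkg7 (-0.75, adjusted p = 0.0256) passed the interaction. Crip1 lost that call without the unstimulated isotype library of mouse 1 (adjusted p = 0.052), the anti-CD3 isotype library of mouse 1 (0.051) or 2 (0.0865) or the library of mouse 3 with both antibodies (0.0612), and Nkg7 kept it in 3 of 12 fits that left out 1 library (adjusted p up to 0.0949).

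**Figure D5:**
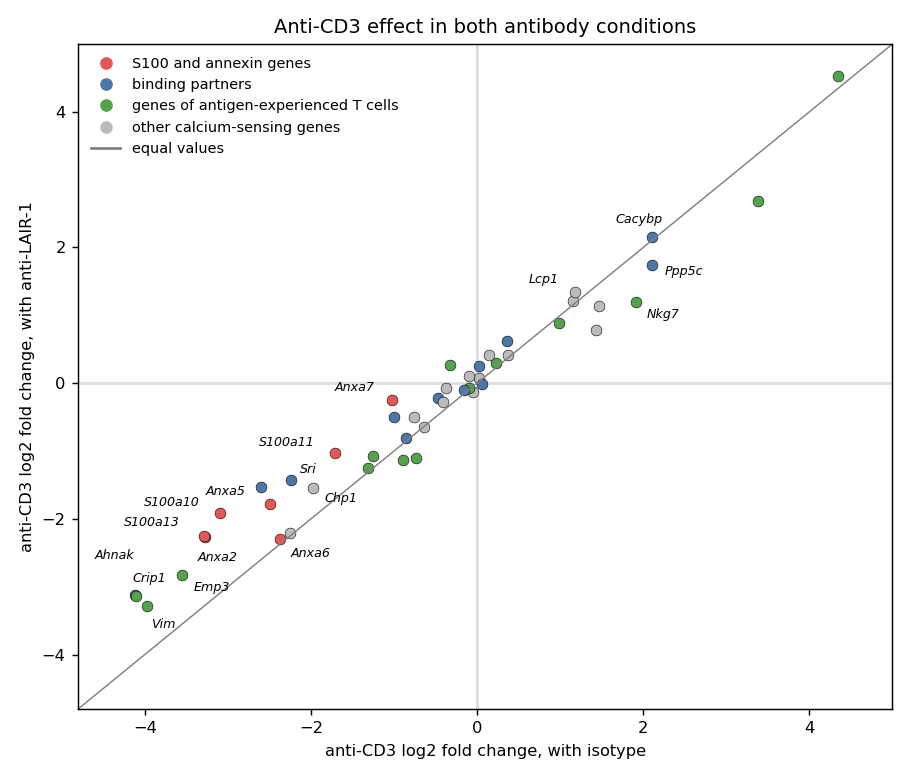
Log2 fold change of anti-CD3 with isotype (x axis) and with anti-LAIR-1 (y axis) for the tested S100 and annexin genes and for 3 other lists; the line marks equal values, and the comparisons share mice but no libraries. S100a10 lies at -3.09 and -1.92, above the line of equal values.

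Genes whose log2 CPM across the 12 libraries was most like that of the 4 genes raised by anti-LAIR-1 were listed from 6788 genes with a mean of at least 10 CPM. For S100a10 these were Lgals9, Dpp4 and H2afv (Pearson r of 0.994, 0.994 and 0.994), for S100a11 Plekha2, Ralgps2 and Cdc25b (0.993, 0.991 and 0.991), for S100a13 Tnfrsf25, Arl6ip5 and Tcp11l2 (0.995, 0.994 and 0.994) and for Anxa7 6330403M23Rik, Parp9 and Rps19 (0.956, 0.953 and 0.944). An r over 0.9 was reached by 1376 genes for S100a10 and by 103 for Anxa7. The libraries fall into a stimulated and an unstimulated cluster, and the values are given as a description only.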

How the data were processed

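RNA of naïve CD8+ T cells of 3 mice in 4 conditions was sequenced by CEL-seq, which reads each transcript near its polyadenylated end. The authors aligned read 2 to the mouse mm10 transcriptome with BWA MEM (BWA and mm10 are also named in the submitters' processing notes), dropped reads with several equally good matches, and deposited raw read counts per gene symbol made with MapAndGo; collapsing of molecular identifiers is not given in the sources used here. Counting intervals and floors cover counting error only.

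Groups were compared in edgeR 4.0.16 (R 4.3.3): TMM, filterByExpr, the two-sided quasi-likelihood F-test over the whole table, and p-values adjusted by Benjamini-Hochberg over every gene tested (threshold 0.05). The SE is that of the log2 fold change, taken as its absolute value divided by the square root of the F statistic. The steps were also run on simulated counts. These had the same setting of spread for every gene and no effect of the mouse, so they do not test those features of the data. With 3 libraries a group, an exact permutation test cannot give a p under 0.1 and was not used. P-values of the main fit rest on the spread between libraries within a group, each from a different mouse, as edgeR estimates it. For the interaction that spread was estimated over all 4 groups together. The main fit had no term for the mouse, so these p-values do not measure how an effect varied from mouse to mouse.

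The mouse numbers pair the libraries, since cells were sorted per mouse. Same-mouse deviations correlated with a mean r of 0.0673 for anti-LAIR-1 in stimulated cells and 0.0891 in unstimulated cells. For anti-CD3 the mean r was 0.0265 in isotype wells and 0.0335 in anti-LAIR-1 wells. Between different mice it was -0.0339, -0.0446, -0.0133 and -0.0167 in the same order. Deviations were taken from the group mean, so same-mouse and different-mouse values are not independent. The study's methods state no block, which was run as an alternative. The other alternatives were DESeq2 1.42.0, other normalizations and filters, all 12 libraries in 1 fit, and each library left out.

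The members and the gene lists were chosen with earlier results of these data known. Named were all members, other family genes that could be tested, of each other list at most 4 passing genes with the lowest p per comparison, and the 3 genes most like a member (log2 CPM, prior count 2). S100a4 was not analysed here.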

Additional observations from a re-analysis of the deposited data

Results flagged for a closer look

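The log2 difference between anti-LAIR-1 and isotype was itself unequal in stimulated and in unstimulated cells for 3 genes, by the interaction test of edgeR over 12 libraries. The difference was 1.14 on the log2 scale for S100a10 (adjusted p = 0.000406), 0.65 for S100a11 (adjusted p = 0.0227) and 0.73 for Anxa7 (adjusted p = 0.00933). With anti-CD3 all 3 mice had higher levels with anti-LAIR-1 than with isotype for each of the 3 genes. No explanation was weighed.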

How the results depend on the processing

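Of 549 alternative values of single S100 and annexin genes, 524 kept their direction and side of the threshold, 19 lost the call and 6 changed direction, all 6 on leaving out 1 library and for values that had not passed. Of 552 such values of other named genes, 26 lost the call and 0 changed direction. Leaving out each library, the log2 fold change ran from -0.069 to 0.22 for Anxa6 with anti-LAIR-1 and anti-CD3, from -0.28 to 0.052 for S100a10 and from -0.16 to 0.082 for Anxa5 with anti-LAIR-1 alone, and from -0.15 to 0.13 for the interaction of Anxa6. The members raised by anti-LAIR-1 with anti-CD3 were 2 to 4, being 2 without the anti-CD3 isotype library of mouse 2 or of mouse 3. All genes called ran from 293 to 427 (507 with all libraries), from 0 to 1 without anti-CD3, and from 104 to 186 for the interaction (191).

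With the replicate block, DESeq2 called 224 genes for anti-LAIR-1 with anti-CD3, and edgeR 549; the block in edgeR changed no member's call other than that of S100a13 (adjusted p = 0.0695), leaving 3 members. Without a filter on low counts, 5 genes were called without anti-CD3. Of the calls of anti-LAIR-1 with anti-CD3, 67.65% were higher, and 79.8% with all 12 libraries in 1 fit. The causes were not tested. Depth limits S100a6, S100a13 and Anxa2 most, with 25 reads or fewer per anti-CD3 isotype library.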
